A study of Mus musculus with 3 samples.

Results

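The SLC25 genes encode the mitochondrial carriers, small membrane proteins that move nucleotides, phosphate, carboxylates, amino acids, acylcarnitines, cofactors, iron and protons across the inner mitochondrial membrane. Each carrier is encoded in the nucleus, made in the cytosol and imported, so its supply can depend on the enhancers of its gene. In fat cells, the citrate carrier feeds fatty acid synthesis, the carnitine-acylcarnitine carrier feeds fatty acid oxidation, and the uncoupling proteins give the family its link to heat production. The genes described here are the protein-coding genes of chromosomes 1 to 19 with symbols that start with Slc25a, plus Ucp2 and Ucp3. They number 45 of 20665 protein-coding genes on these chromosomes. They were chosen by name and position in the RefSeq annotation of mm10 and fall into 8 substrate classes, the last of which holds carriers with no settled substrate. The carriers encoded on the X chromosome and Ucp1 are not among them.

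H3K4me1, histone H3 monomethylated at lysine 4, marks enhancers, active or poised, and the flanks of active promoters. ChIP-seq with the antibody ab8895 mapped it in male C57BL/6J adipocytes. There was 1 library of the wild type (WT) and 1 of the adipocyte-specific LONP1 knockout (AKO). LONP1 is the Lon protease of the mitochondrial matrix. An input library, wild type by its genotype label but named in its title as the control of AKO, served as the background of both. The Cre driver, the number and age of the mice, the fat depot and any treatment are not given in the sources used here.

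After duplicate removal 15015805 tags remained for WT and 14733950 for AKO. With 1 library per genotype there is no spread between replicates and no test, and every difference below is one between these libraries. Genes are compared by coverage, the kb inside the authors' peaks within the gene body and 10 kb on each side, and by height, the number of fragments at a peak summit. No summit below 10 fragments was called in either library, so weaker sites were not detectable at this depth. All 7 adipocyte markers checked, among them Adipoq and Plin1, had peaks in both libraries. Their summed coverage was 21.8 kb (WT) and 14.6 kb (AKO), a ratio of 0.669, with less in AKO at 6 of 7. For 5 thermogenic markers, of which Dio2 had no peak, it was 0.616 (25.7 and 15.9 kb). The markers of other cells were also marked. The ratio of AKO to WT was 0.451 for endothelial markers (24.1 and 10.9 kb, less in AKO at 6 of 6) and 0.576 for progenitor and fibroblast markers (39.5 and 22.7 kb, less at 5 of 6). It was 0.600 for macrophage markers (17.7 and 10.6 kb, less at 4 of 6) and 0.415 for skeletal muscle markers (11.6 and 4.79 kb, less at 3 of 5). Among them the macrophage markers Adgre1 and Mrc1 and the muscle markers Myod1 and Myh4 had no peak in either library, Itgam had none in AKO and Dcn none in WT. Over all protein-coding genes the ratio was 0.725, and 78.3% of the 14700 genes with a peak had less coverage in AKO. The part of other cells in the results below was not tested, and fewer cells of a type and less mark per cell cannot be told apart.

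The carrier genes as a family carried less H3K4me1 in AKO, to about the extent seen over all genes. Their summed coverage was 151.6 kb for WT and 104.1 kb for AKO, a ratio of 0.687 beside 0.725 over all protein-coding genes. Coverage was less in AKO for 31 members (the same holds for 55.7% of all genes), greater for 8 (15.5%) and absent from both libraries for 6 (28.9%). Among genes with a peak the shares were 79.5% of the 39 members and 78.3% of 14700 genes, so the 2 shares were close. The median difference between AKO and WT was −0.908 kb over the 45 members and −0.248 kb over all genes. Among genes with a peak it was −0.972 kb and −0.749 kb. The counts turned when the lists were made equal in covered length. With only the strongest peaks by q kept, up to 50% of the covered length of the shorter list in each library, coverage was lower in AKO at 11 members (24.96% of all genes) and greater at 15 (21.1%), the median difference was 0.0 kb and the summed ratio 0.891.

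A rule of size stands in for a test. It calls a gene lower in AKO where WT coverage is more than 2 times AKO coverage and the difference is at least 2 kb, and calls it higher where the roles are exchanged. It called 4 members lower, among them Slc25a10, Slc25a34 and Slc25a44, and none higher. This is 8.89% of the members beside 5.56% of all genes called lower, with 0.237% of all genes called higher. Only genes with at least 2 kb in WT can be called lower, and among these the shares were 17.4% of 23 members and 14.0% of 8198 genes. These shares are near the background and are not a result about the family. Which members met the rule also depended on the setting. Slc25a44 met it in 6 of 8 alternative settings, Slc25a10 in 5 and Slc25a34 in 3.

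Less coverage in AKO was more frequent among richly marked carriers than among sparsely marked ones, a difference that was not tested. Of the 21 members with a mean of at least 2 kb over both libraries, all 21 had less coverage in AKO, as did 87.8% of the 7462 genes at that level. Of the 18 members with a mean above 0 and under 2 kb, 10 had less and 8 more, and 68.4% of the 7238 genes at that level had less. The summed ratio was 0.888 for these 18 members and 0.658 for the 21. Over all genes the order of the ratios was the opposite, 0.683 in the sparse range and 0.730 in the rich range. The 8 members with more coverage in AKO thus all lay in the sparse range, where coverage comes from a few peaks.

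**Figure D1:**
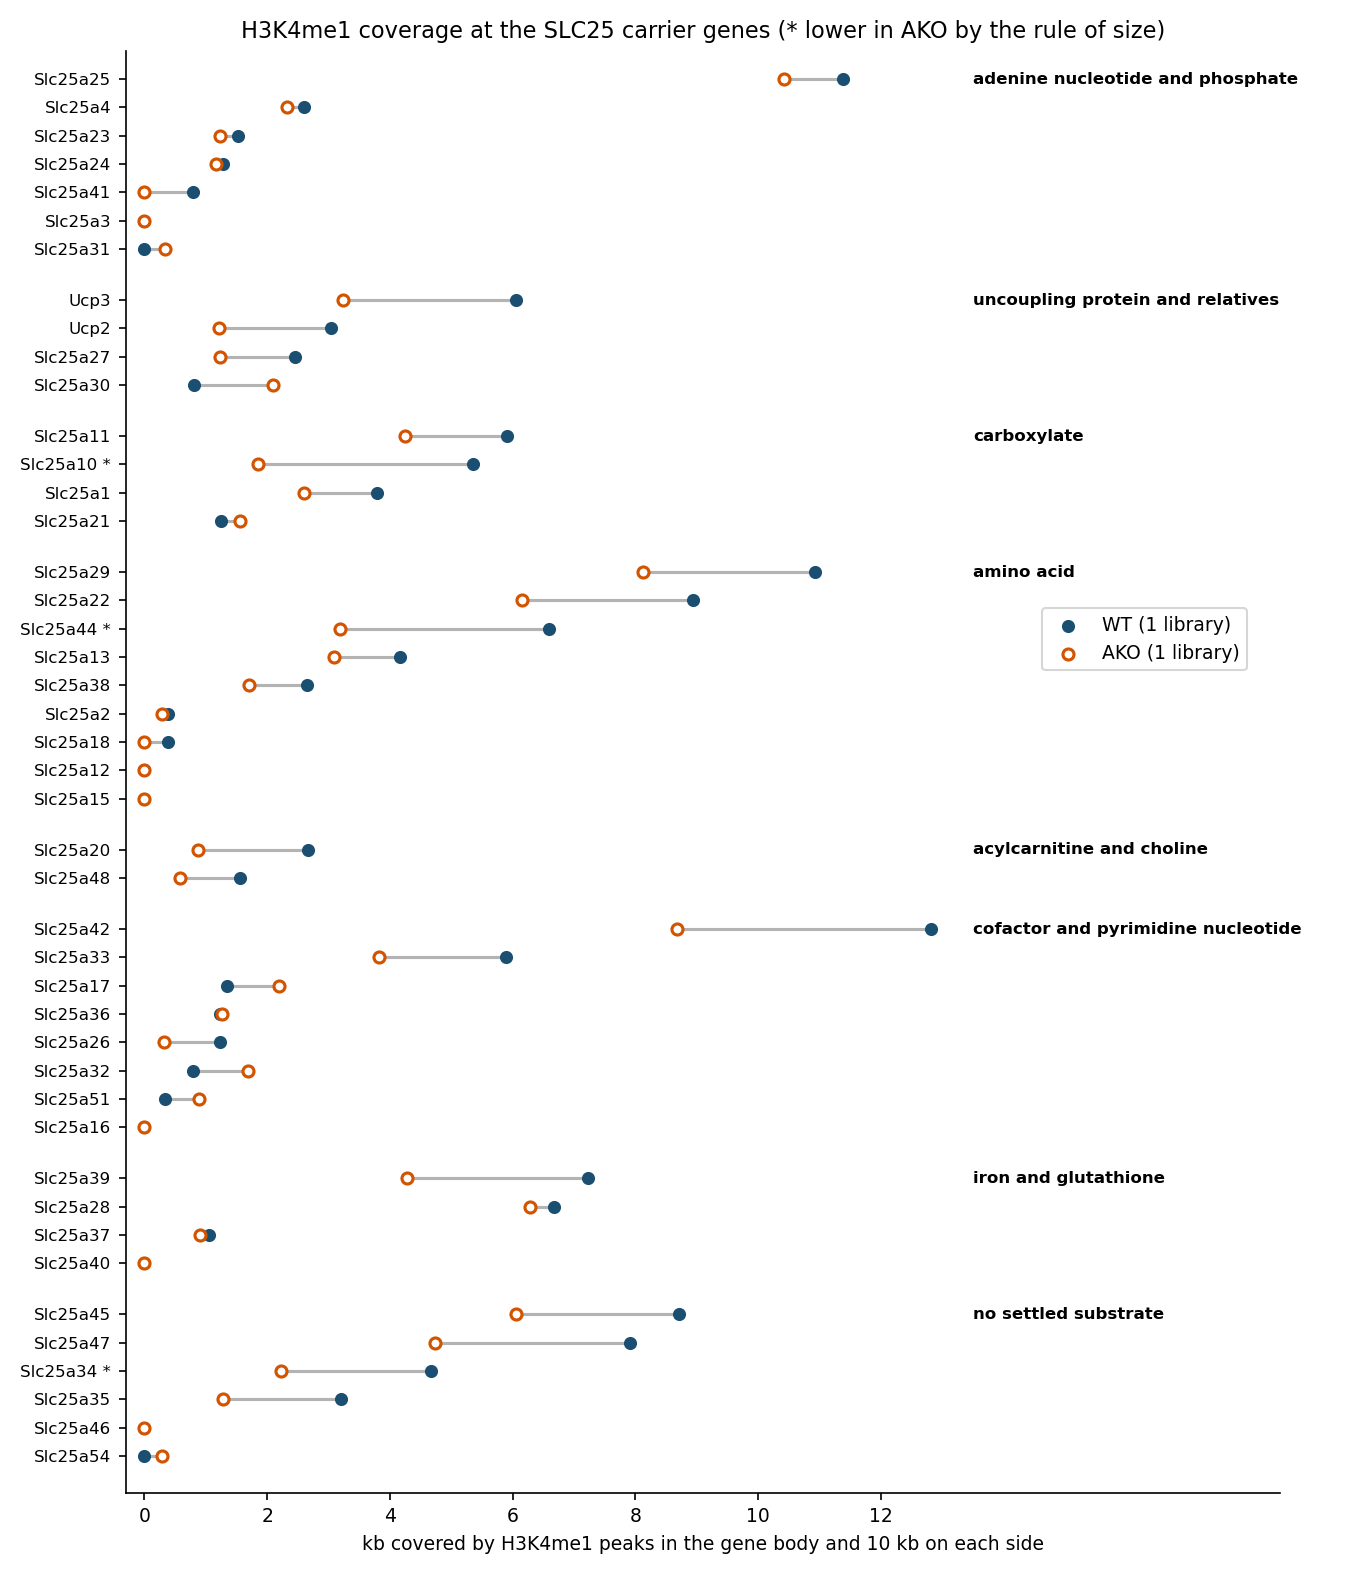
The plot of coverage by member shows kb covered by H3K4me1 peaks (horizontal axis) for 44 carrier genes, grouped by substrate class, with WT as filled and AKO as open circles, 1 library each. AKO lies left of WT for 30 genes and right of it for 8, and the 3 genes marked with an asterisk met the rule of size.

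Carriers of adenine nucleotides and phosphate supply the ATP synthase and return ATP to the cytosol. In this class of 7, coverage summed to 17.6 kb (WT) and 15.5 kb (AKO), a ratio of 0.882, the highest of the 8 classes. Slc25a25 (chromosome 2, 32414487 to 32451470), a calcium-dependent carrier of ATP-Mg and phosphate, made up most of it with 11.4 kb from 12 WT peaks and 10.4 kb from 11 AKO peaks. Its coverage differed little between the libraries, but its peaks were cut differently. A WT peak of 4.29 kb in the gene body (32418391 to 32422684, 34 fragments) overlapped 3 AKO peaks of 1.06, 1.76 and 1.87 kb with 27, 23 and 28 fragments. Slc25a4 (chromosome 8, 46207168 to 46211062), the ADP/ATP carrier of heart and muscle, which also conducts protons in fat and other tissues, had 2.61 kb and 2.33 kb. At Slc25a4 the highest summit held 28 fragments in WT and 22 in AKO, with exact Poisson 95% intervals of 18.6 to 40.5 and 13.8 to 33.3 that overlap widely. Of the other calcium-dependent carriers, Slc25a23 had 1.53 and 1.24 kb and Slc25a24 1.28 and 1.17 kb. The remaining members were at or near 0. Slc25a41 had a WT peak of 0.788 kb and none in AKO, the testis carrier Slc25a31 an AKO peak of 0.339 kb and none in WT, and the phosphate carrier gene Slc25a3 no peak in either library.

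The uncoupling proteins return protons or anions across the inner membrane. Of 4 genes, 3 had less and 1 more coverage in AKO, with a summed ratio of 0.630 (12.4 and 7.78 kb). Ucp3 (chromosome 7, 100472991 to 100486432), known from skeletal muscle and brown fat, had 6.06 kb from 11 peaks in WT and 3.24 kb from 6 peaks in AKO. Ucp2 (100493337 to 100499629), widely expressed and abundant in immune cells, had 3.05 kb from 6 peaks and 1.21 kb from 3. The genes are neighbours, and their windows share 13.1 kb that held 2.56 kb of WT and 0.861 kb of AKO coverage, so their values are not independent. The strongest site of the pair was alike in both libraries. It lay 7.34 kb upstream of the Ucp3 start site in WT, inside the neighbouring gene C2cd3, with 34 fragments, and the AKO peak there held 33. The sites with no AKO peak lay elsewhere. At Ucp2, 3 WT peaks inside the gene, with 15, 21 and 18 fragments, overlapped no AKO peak, and 61.3% of the WT length at Ucp2 was in peaks without an AKO partner. Ucp2 and Ucp3 missed the rule of size, with ratios of WT to AKO of 2.51 and 1.87 and differences of 1.84 kb and 2.81 kb. Slc25a27, a brain uncoupling protein relative, had 2.45 and 1.23 kb, and its strongest peak (51 and 30 fragments) lay in the body of the neighbouring gene Tdrd6. Slc25a30, first described as a kidney carrier, had the largest excess in AKO of all members, 0.801 kb (WT) and 2.09 kb (AKO). All of its peaks lay in the flank, inside the neighbouring gene Cog3, 2 in WT and 4 in AKO, of which 2 overlapped a WT peak.

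Carboxylate carriers link the citric acid cycle to lipid synthesis and to the malate shuttles. Here too 3 of 4 genes had less coverage in AKO, and the summed ratio was 0.629 (16.3 and 10.3 kb). Slc25a10 (chromosome 11, 120491837 to 120501161), the dicarboxylate carrier that exchanges malate and succinate for phosphate, had 5.36 kb (WT) and 1.86 kb (AKO), a WT to AKO ratio of 2.89. The 4 AKO peaks each overlapped a WT peak, while 4 further WT peaks had no partner. The peak just upstream of its start site was of equal height, with 29 fragments and a fold enrichment over input of 8.04 in WT and 8.13 in AKO. The WT peak with its summit 1.26 kb inside the gene was 1.56 kb long and its AKO counterpart 0.404 kb, with 25 and 22 fragments. Further inside the gene, WT peaks with 22 and 24 fragments had no AKO peak. The libraries thus differed at Slc25a10 in peak width, deeper in the gene and in the flanks, and not in height just upstream of the start site. Slc25a1 (chromosome 16, 17925211 to 17928219), the citrate carrier, had 3.80 and 2.60 kb. Its main WT peak of 3.27 kb (17924316 to 17927583, 35 fragments) spanned most of the gene and corresponded to 2 AKO peaks, one at its low-coordinate end with 23 fragments and one with 19. Slc25a11 (chromosome 11, 70644019 to 70647531), the oxoglutarate-malate carrier, had 5.91 and 4.25 kb, but its strongest peaks lay in the bodies of neighbouring genes, with 46 fragments in WT inside Eno3 and 29 in AKO inside Rnf167. Slc25a21, an oxodicarboxylate carrier of 485 kb, had only 1.25 kb (WT) and 1.56 kb (AKO).

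Among 9 amino acid carriers, the 7 with a peak all had less coverage in AKO, as did 78.3% of all genes with a peak. Coverage of the class summed to 34.1 kb (WT) and 22.5 kb (AKO), a ratio of 0.662. Slc25a44 (chromosome 3, 88410494 to 88425141), which brings branched-chain amino acids into mitochondria of brown fat, had 6.59 kb from 8 WT peaks and 3.19 kb from 5 AKO peaks. The 5 AKO peaks all overlapped WT peaks. The tallest WT peak of Slc25a44, inside the gene (88422070 to 88422474), held 37 fragments and had no AKO partner. The tallest AKO peak there held 21 fragments, against 25 in the WT peak that it overlapped. Slc25a29, a carrier of basic amino acids, had 10.9 and 8.13 kb, and Slc25a22, a glutamate carrier, 8.94 and 6.15 kb. They were the most densely marked members of the class, with peaks over 36.4% and 31.8% of their windows in WT and 27.1% and 21.9% in AKO. The aspartate-glutamate carriers of the malate-aspartate shuttle differed from each other. Slc25a13 had 4.17 and 3.09 kb spread over a gene of 176 kb, and Slc25a12 had no peak in either library. Slc25a38, which supplies glycine for haem synthesis, had 2.66 and 1.70 kb, with its strongest peaks in the body of Rpsa. The lowest values were those of the glutamate carrier Slc25a18 (0.378 kb in WT, no AKO peak), the ornithine carrier Slc25a2 (0.389 and 0.287 kb, not overlapping) and the ornithine carrier Slc25a15 (no peak).

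The acylcarnitine and choline carriers had the lowest summed ratio of the 8 classes, 0.344 (4.22 and 1.45 kb), from only 2 genes. The carnitine-acylcarnitine carrier gene Slc25a20 (chromosome 9, 108662136 to 108684642) had 2.66 kb (WT) and 0.869 kb (AKO), a WT to AKO ratio of 3.07 with a difference of 1.795 kb, just short of the rule of size. None of its peaks lay within 20 kb of its start site. They lay at the far end of the gene and beyond it, and the tallest held 22 fragments in each library. Slc25a48, a choline carrier, had a single peak over its start site in each library, 1.55 kb with 33 fragments in WT and 0.580 kb with 20 in AKO. The AKO peak lay wholly inside the WT peak.

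Carriers of cofactors and pyrimidine nucleotides were the class with the most mixed directions, with 4 members less and 4 more covered in AKO and Slc25a16 without a peak. The summed ratio was 0.742 (27.6 and 20.5 kb), and 1 gene supplied much of it. Slc25a42 (chromosome 8, 70184340 to 70212281), a coenzyme A carrier, was the most covered member of the family in WT, with 12.8 kb from 14 peaks, and had 8.68 kb from 8 peaks in AKO. Its tallest peak lay upstream, with the WT summit at −8.24 kb from the start site, in the body of Armc6, with 53 fragments over 4.56 kb in WT (70218408 to 70222965) and 37 fragments over 2.83 kb in AKO. Slc25a33, a pyrimidine nucleotide carrier, had 5.89 and 3.82 kb. Of the 4 with more coverage in AKO, Slc25a17, which carries cofactors into peroxisomes, had 1.34 and 2.19 kb, and its highest summit held 17 and 24 fragments. The folate and FAD carrier Slc25a32 had 0.792 and 1.68 kb and the NAD carrier Slc25a51 0.333 and 0.896 kb, and in neither did any WT peak overlap an AKO peak. Slc25a36 (1.23 and 1.26 kb) hardly differed. Slc25a26, the carrier of S-adenosylmethionine, the methyl donor of histone methylation, had 1.23 kb from 3 WT peaks and 0.322 kb from 1 AKO peak, with no overlap.

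Iron and glutathione carriers, with a summed ratio of 0.766 (15.0 and 11.5 kb), had less coverage in AKO at all 3 genes with a peak. The same held for 78.3% of all genes with a peak. The mitoferrin gene Slc25a28 (chromosome 19, 43663801 to 43675006) had 9 peaks in each library and 6.68 and 6.28 kb, the smallest relative difference among members above 3 kb. Its tallest summit nevertheless held 39 fragments in WT and 25 in AKO. The other mitoferrin, Slc25a37, best known from red cell precursors, had 1.05 and 0.906 kb. Slc25a39 (chromosome 11, 102402969 to 102408675), which imports glutathione, had 7.23 and 4.28 kb, and its relative Slc25a40 had no peak. Among 6 carriers with no settled substrate, 4 had less and 1 more coverage in AKO, with a summed ratio of 0.596 (24.5 and 14.6 kb). Of these, Slc25a34 (chromosome 4, 141618819 to 141623891) had 4.68 and 2.23 kb. Its 3 AKO peaks lay within 3 WT peaks, and 3 further WT peaks inside the gene, with 18, 15 and 22 fragments, had no partner. Slc25a45 had 8.72 and 6.06 kb with 53 and 40 fragments at its tallest peak, which lay in the body of Frmd8. The liver carrier Slc25a47 had 7.92 and 4.73 kb, and Slc25a35 had 3.20 and 1.28 kb, short of the rule of size at a difference of 1.92 kb. Slc25a54 had an AKO peak of 0.292 kb only, and Slc25a46, a protein of the outer membrane, had no peak.

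**Figure D2:**
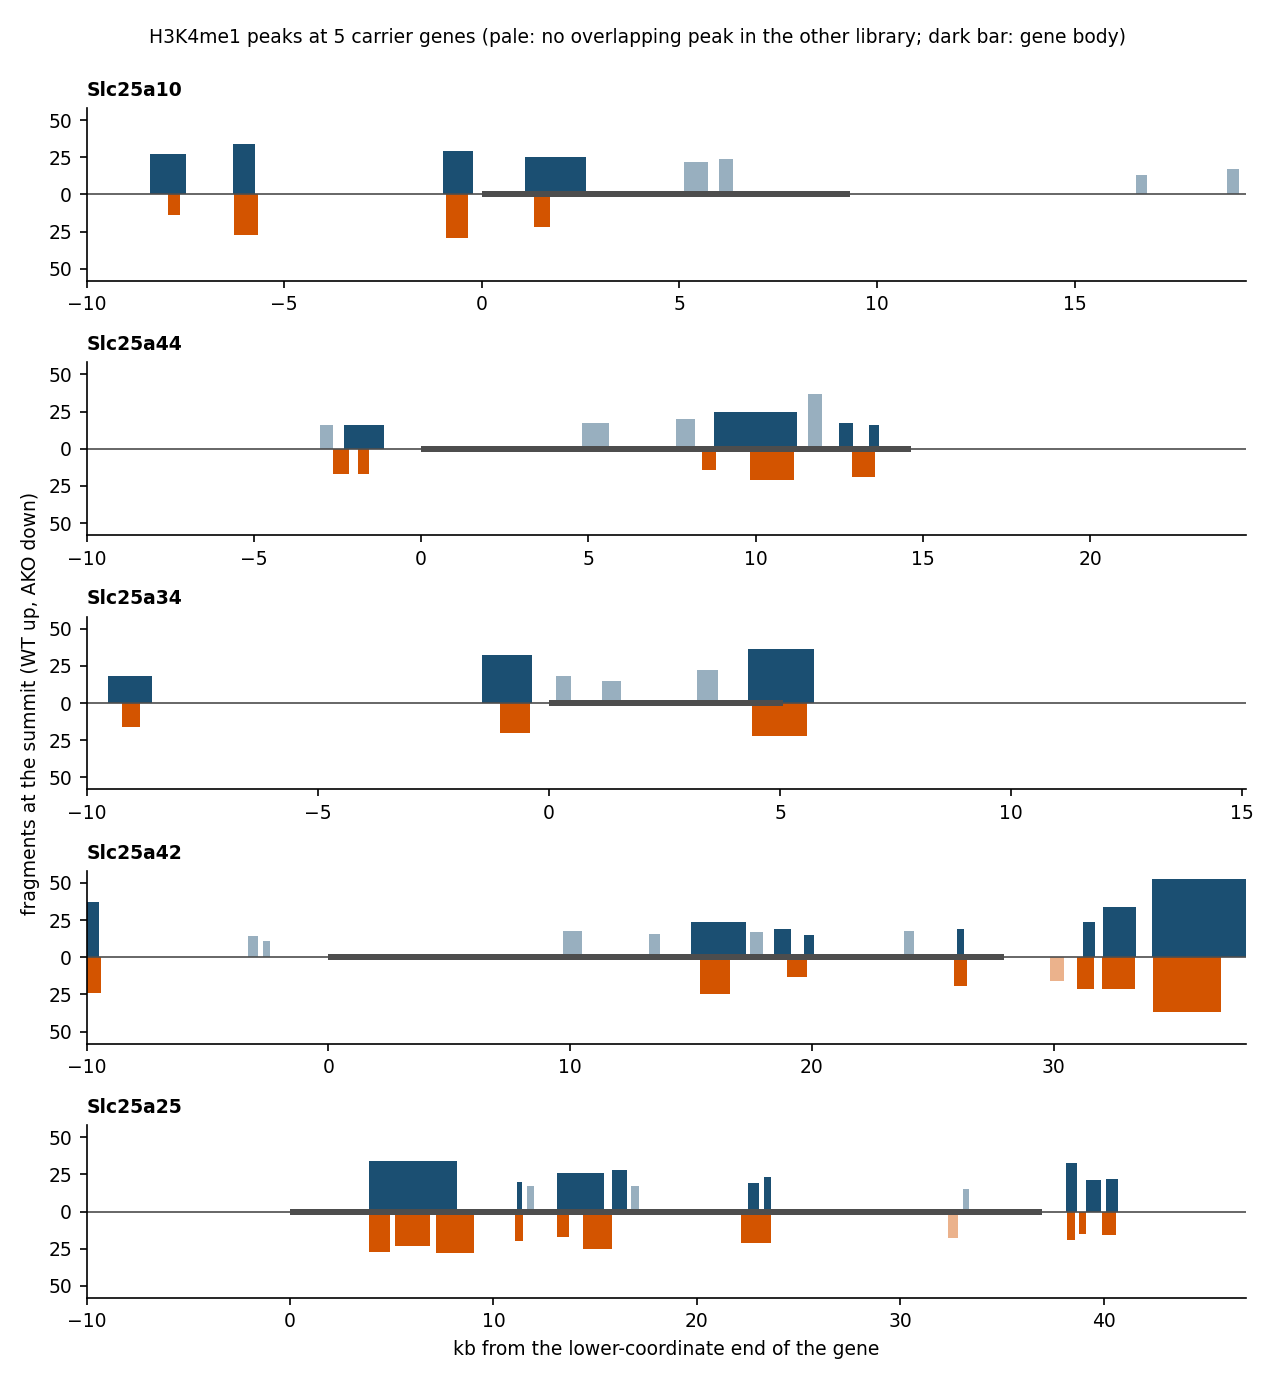
The maps of 5 carrier loci show each H3K4me1 peak as a block, by distance in kb from the lower-coordinate end of the gene (horizontal axis) and fragments at the summit (vertical axis, WT upward, AKO downward), with the gene body as a dark bar. At Slc25a10, Slc25a44 and Slc25a34 pale blocks, which have no partner in the other library, appear on the WT side only, and at Slc25a42 and Slc25a25 on both sides.

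The peaks were then counted over the family, each peak once. The windows held 176 WT and 137 AKO peaks, of which 56.3% and 51.1% had their summit inside a carrier gene and 26.7% and 30.7% inside the body of another protein-coding gene. At least 1 other gene reached into the windows of 36 of the 45 members, so a peak in a window need not belong to the carrier. An AKO partner, a peak overlapping by at least 1 bp, existed for 59.7% of the WT peaks (105 of 176, Wilson 95% interval 52.3 to 66.6, counting error only). It existed for 60.6% of all WT peaks on chromosomes 1 to 19. A WT partner existed for 80.3% of the AKO peaks (110 of 137, 72.8 to 86.1), beside 76.2% of all AKO peaks. The WT interval holds the genome-wide share of WT peaks, and the AKO interval that of AKO peaks. Peaks with no partner were weaker, with a median of 17 fragments in WT against 23 for those with one, and 15 against 20 in AKO. In 19 of the 37 members with an AKO peak, every AKO peak overlapped a WT peak. The reverse held in 5 of the 37 members with a WT peak. These counts were not made over all genes and are not a result about the family.

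The WT length was split by what AKO held at the same bases. Of 153.2 kb in WT peaks, 54.3% was also inside an AKO peak, 24.5% lay in WT peaks that overlapped an AKO peak but outside it, and 21.1% in WT peaks without a partner. The shares over chromosomes 1 to 19 were 54.9%, 22.6% and 22.5%. WT bases outside AKO peaks were thus split about evenly between the edges of shared peaks and unpartnered peaks, in the family as in the genome. The proportions varied by gene. At Slc25a1 the whole remainder, 1.83 kb, was at the edges of shared peaks, whereas at Slc25a33 the edges made up 0.25 kb and unpartnered peaks 1.82 kb.

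**Figure D3:**
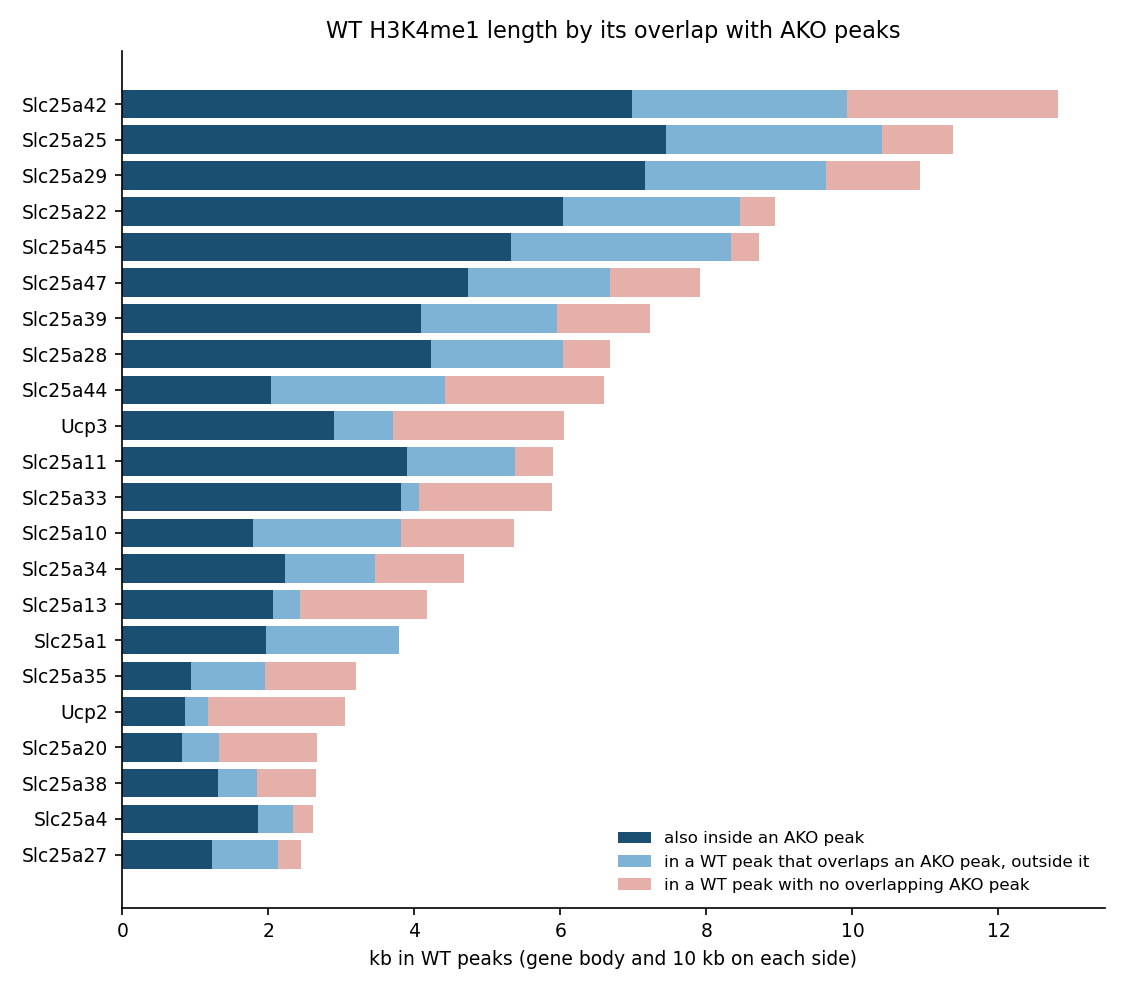
The plot of WT length by overlap shows, for 22 members with at least 2 kb in WT, the kb in WT peaks (horizontal axis) that were also inside an AKO peak, at the edge of a shared peak, or in a peak without AKO partner. The part also marked in AKO was 6.98 of 12.8 kb at Slc25a42 and 0.858 of 3.05 kb at Ucp2.

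Heights also differed. Of the 35 members with peaks in both libraries, the highest summit had fewer fragments in AKO in 28 (80.0%, beside 83.4% of 12567 genes with peaks in both), more in 6 (17.1%, beside 12.6%) and the same number in 1. The counts ranged from 16 to 53 in WT and from 14 to 40 in AKO. The exact Poisson 95% intervals of WT and AKO overlapped in all 35 members, and they did not overlap in 1.53% of the 12567 genes with peaks in both. Overlap does not show that the heights were equal. At the peak near Slc25a27 the intervals were 38.0 to 67.1 for 51 WT fragments and 20.2 to 42.8 for 30 AKO fragments. At the regions marked in both libraries, 94 in all, the median pileup (fragments scaled by the authors to the tag number of the input) was 15.2 in WT and 13.0 in AKO. AKO was the lower in 73.4% of them (69 of 94, Wilson 63.7 to 81.3), beside 71.8% of 40924 regions genome-wide, and the median ratio was 0.858 in both sets. The lowest ratio, 0.528, was at the peak at −8.24 kb from the Slc25a10 start site, inside Hgs (27 and 14 fragments). The highest, 1.57, was at Slc25a37 (13 and 20 fragments). Length and height did not always go together. Slc25a38 and Slc25a37 had less coverage in AKO but a taller highest summit, with 19 (WT) and 23 (AKO) fragments at Slc25a38. At Slc25a37 the highest summits hardly differed, with 19 and 20 fragments, and lay at different sites.

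**Figure D4:**
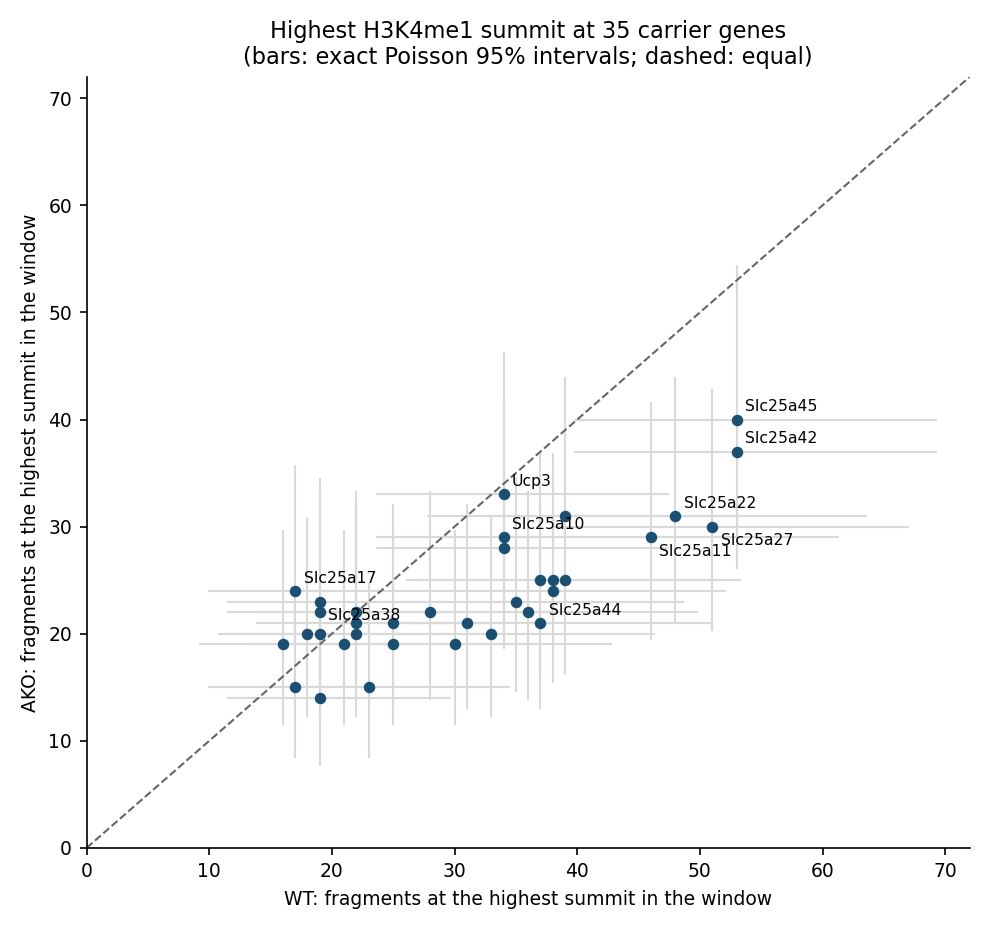
The plot of highest summits shows, for the 35 carrier genes with peaks in both libraries, the fragments at the highest summit in WT (horizontal axis) and AKO (vertical axis), with exact Poisson 95% intervals as bars and equality as a dashed line. The points with 46 or more WT fragments all lie below the line, and the intervals of WT and AKO overlap at every gene.

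Start sites were available for 34 members in the RefSeq promoter table (GRCm38.p6, the assembly called mm10). A WT peak lay within 2 kb of a start site in 23 of 34 members, 67.6% (Wilson 50.8 to 80.9), beside 44.1% of 16457 protein-coding genes. In AKO it was 19 members, 55.9% (39.5 to 71.1), beside 36.7%. The members' shares were above those of all genes in both libraries, a difference that was not tested. They were not compared with genes that have a peak, and 28.9% of all 20665 genes but 13.3% of the 45 members have none. Summed coverage in WT was 5.98% of the whole windows for members, 5.78% for genes with a peak and 4.75% for all genes. For the other mitochondrial transport genes described below it was 8.07%. In AKO these values were 4.11%, 4.19%, 3.45% and 5.98%. The profile around start sites used the first listed site of each gene and was highest downstream of it. Between 1 and 3 kb downstream, peaks covered 25.8% of carrier bases in WT and 18.99% in AKO, beside 14.0% and 10.4% over all genes. Between 1 and 3 kb upstream the values were 9.53% and 5.76% for carriers and 5.71% and 3.93% over all genes. Carriers were also above all genes far from the start site, with 9.72% and 6.70% between 5 and 10 kb upstream, beside 4.15% and 2.78%, and 11.2% and 8.02% between 5 and 10 kb downstream, beside 6.55% and 4.80%. Single bins varied. Between 9 and 10 kb downstream carriers were below all genes, at 0.294% to 4.94% in WT (all genes 6.11% to 6.27%). In AKO they were at 0.0% there (all genes 4.36% to 4.53%). The excess in these zone means was therefore not limited to the start sites, but it did not hold at every distance.

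**Figure D5:**
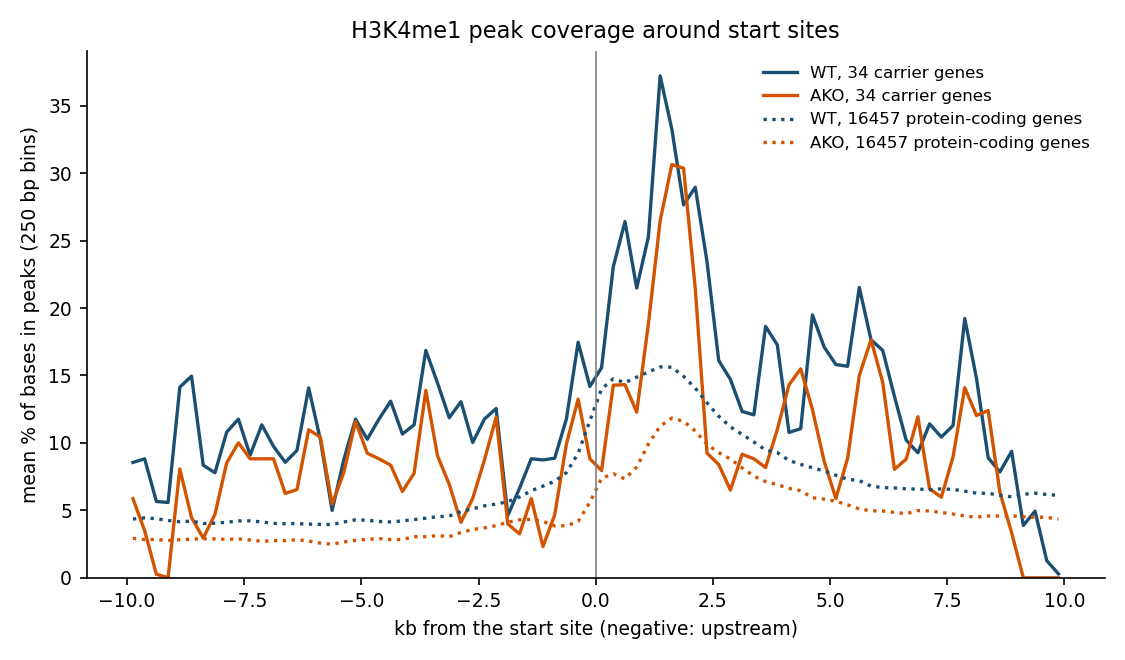
The profile around start sites shows the mean percentage of bases in H3K4me1 peaks in bins of 250 bp (vertical axis) by distance from the first listed start site of each gene in kb (horizontal axis), for 34 carrier genes (solid) and 16457 protein-coding genes (dotted) in WT and AKO. For carriers the highest bin, centred 1.375 kb downstream in WT, stood at 37.2% in WT and 26.5% in AKO, and the highest AKO bin, centred 1.625 kb downstream, at 30.6%.

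The promoter window itself, 250 bases before to 50 after the start, was mostly free of peaks. A WT peak reached into it at 9 of 34 members, 26.5% beside 17.4% of all genes, and an AKO peak at 4 members, 11.8% beside 9.83%. The 4 were Slc25a34, Slc25a47, Slc25a48 and Ucp2. Some genes have several windows, 41 in all for the 34 members. The 9 windows with a WT peak held a median of 8 CpG dinucleotides (range 1 to 21) and the 32 without one a median of 20.5 (3 to 51). Over all genes the order was the opposite, 15 in 3348 windows with a peak and 13 in 16737 without. The contrast among carriers rests on 9 windows and runs against that of all genes. The following windows, from both sides of it, are shown with CpG in capitals. In Slc25a34, Slc25a48 and Ucp2 a peak of each library reached into the window, and in Slc25a3 and Slc25a39 none did. The windows hold 1, 14, 21, 31 and 45 CpG in that order. They lie at chr4:141623785-141624084 (minus strand), chr13:56438105-56438404 (plus), chr7:100493108-100493407 (plus), chr10:91123918-91124217 (minus) and chr11:102407468-102407767 (minus), and read 5′ to 3′.
Slc25a34: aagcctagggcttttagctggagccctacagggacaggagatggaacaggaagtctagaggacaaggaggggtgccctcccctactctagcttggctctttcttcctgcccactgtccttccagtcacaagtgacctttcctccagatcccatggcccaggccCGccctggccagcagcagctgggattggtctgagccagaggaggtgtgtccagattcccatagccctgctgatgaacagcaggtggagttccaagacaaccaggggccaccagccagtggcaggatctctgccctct
Slc25a48: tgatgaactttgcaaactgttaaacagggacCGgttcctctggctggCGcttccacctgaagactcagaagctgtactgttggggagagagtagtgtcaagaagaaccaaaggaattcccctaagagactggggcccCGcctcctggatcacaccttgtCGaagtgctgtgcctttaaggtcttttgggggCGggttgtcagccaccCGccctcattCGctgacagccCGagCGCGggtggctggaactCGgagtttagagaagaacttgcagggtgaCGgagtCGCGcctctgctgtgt
Ucp2: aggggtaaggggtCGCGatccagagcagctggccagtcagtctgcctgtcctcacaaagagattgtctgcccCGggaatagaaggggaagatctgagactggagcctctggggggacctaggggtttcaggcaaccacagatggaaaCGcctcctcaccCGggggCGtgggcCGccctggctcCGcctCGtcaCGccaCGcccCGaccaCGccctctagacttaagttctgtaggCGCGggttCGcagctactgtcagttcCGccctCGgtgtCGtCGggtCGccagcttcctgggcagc
Slc25a3: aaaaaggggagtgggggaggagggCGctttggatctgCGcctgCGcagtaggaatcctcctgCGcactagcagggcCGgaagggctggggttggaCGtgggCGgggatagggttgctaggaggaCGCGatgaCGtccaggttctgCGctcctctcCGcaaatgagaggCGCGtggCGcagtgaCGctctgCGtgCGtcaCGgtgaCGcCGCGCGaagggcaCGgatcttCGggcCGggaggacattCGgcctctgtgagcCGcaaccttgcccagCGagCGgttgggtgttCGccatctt
Slc25a39: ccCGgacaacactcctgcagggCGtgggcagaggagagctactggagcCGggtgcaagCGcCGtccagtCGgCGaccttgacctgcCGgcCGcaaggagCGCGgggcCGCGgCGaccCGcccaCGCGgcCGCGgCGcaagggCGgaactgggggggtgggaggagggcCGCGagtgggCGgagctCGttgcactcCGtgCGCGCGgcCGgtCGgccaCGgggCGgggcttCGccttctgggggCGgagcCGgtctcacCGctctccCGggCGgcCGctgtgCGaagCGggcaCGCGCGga

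The same windows were searched on both strands for the letters of factors that control nuclear genes of mitochondria. The ETS letters CCGGAAG, as bound by GABP, occurred in 7 of 34 members, 20.6% beside 13.3% of all genes, among them Slc25a3, Slc25a4, Slc25a20 and Slc25a25. The NRF1 motif (GCGC, A, any base, GCGC) occurred in Slc25a3 and Slc25a31, 5.88% beside 7.39%. The E-box CACGTG occurred in 6 members, Slc25a1 among them, 17.6% beside 9.01%. The cyclic AMP element TGACGTCA occurred in Slc25a25 and Slc25a36, 5.88% beside 2.63%. The letters TCAAGGTCA of the oestrogen-related receptors were in no member and in 0.383% of all genes. The DR1 motif of the PPAR receptors was in no member and in 0.0547% of all genes. A match describes the letters of the window and not a bound factor.

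Other genes of mitochondrial transport had a summed ratio near that of all genes. Of 30 such genes, 21 had less coverage in AKO (55.7% of all genes), 6 more (15.5%) and 3 no peak (28.9%). Among those with a peak 77.8% had less, beside 78.3% of all genes with a peak. None met the rule of size, beside 5.56% of all genes called lower. At least 2 kb in WT was held by 17 of them, and 14.0% of all genes at that level were called lower. The summed ratio of the 30 genes was 0.741 (134.0 and 99.3 kb), beside 0.725 over all genes, with a median difference of −0.616 kb. The import machinery that brings carriers to the inner membrane was split, with 5 of 10 genes less and 4 more covered. Among these, Tomm40, the import pore, had 9.12 and 4.63 kb and missed the rule by its ratio, and the receptor gene Tomm70a, which binds carrier precursors, had no WT peak and 0.681 kb in AKO. Channels and carrier relatives of the outer membrane were all less covered in AKO. Vdac1, the main porin, had 8.15 and 7.72 kb, and Mtch1, a distant relative of the carriers, 13.4 and 9.17 kb. The pyruvate carrier genes were hardly marked, with 0.662 kb in WT only at Mpc1 and no peak at Mpc2.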

How the data were processed

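Peak lists of 1 WT and 1 AKO library were used as deposited. Per the file headers, the authors called narrow peaks with MACS 2.1.1.20160309 for each library alone against the same input, at a q-value cutoff of 0.05, keeping 1 tag per position. The submitters' processing notes name Bowtie2 2.2.5 and MACS2 2.2.1 instead. Narrow mode can cut a broad H3K4me1 domain into several peaks, which affects peak numbers. The deposited signal is the pileup at the summit, with the larger dataset scaled to the smaller. The deposited fold ratio is the enrichment over input, and significance is given as −log10 p-values and −log10 q-values. Pileup divided by 0.635 (WT) or 0.647 (AKO) was whole within 0.02 at every peak and gave the fragments.

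Coverage was summed in Python 3.11.15 with pandas 2.3.3 over gene bodies of RefSeq (GRCm38.p6) and 10 kb flanks, and code was tested on simulated peaks. Windows of 4 pairs of members overlap. Peaks off chromosomes 1 to 19 (398 of WT, 167 of AKO) were not used, except for the values of the carrier genes on the X chromosome. Promoter windows were available for 34 members, and 11 have none, among them Slc25a2, Slc25a26, Slc25a27, Slc25a32, Slc25a35, Slc25a37, Slc25a41, Slc25a44, Slc25a46 and Slc25a51. Members, classes, marker and transport lists and the rule of size were chosen with earlier results of these data known. One member counted in the totals is not reported here by name. Members named in full are those meeting the rule of size, the extremes of each class, those marked in 1 library only, and a fixed set of well-known carriers. The other members and the transport genes named were chosen after their values were seen. Alternatives changed the peak threshold, the list lengths, joining, windows and overlap.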

Additional observations from a re-analysis of the deposited data

How the results depend on the processing

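No paired analysis was possible because each genotype has 1 library, and no replicate could be left out. Under 8 alternatives the family ratio stayed below 1, between 0.555 (−log10 q of at least 5) and 0.891 (equal covered length), and was 0.694 with overlapping windows counted once, a setting added after the data were seen. Over all genes the ratios in the first 2 settings were 0.554 and 0.935. No member was called higher in any setting. With only the strongest peaks by q kept, up to 50% of the covered length of the shorter list in each library, coverage was lower in AKO at 11 members (24.96% of all genes) and greater at 15 (21.1%), 2 were called lower (4.44%, beside 2.59% of all genes) and the median difference was 0.0 kb. There Slc25a10 turned to +0.187 kb (0.774 kb in WT and 0.961 kb in AKO), and none of the 4 members of the main call was called. Members called lower numbered 9 with −log10 q of at least 5, 7 with peaks within 1 kb joined and 1 (Slc25a10) with equal numbers of peaks, where 11.5%, 7.37% and 4.03% of all genes were. Members with more coverage numbered 5 with flanks of 25 kb, where 15.2% of all genes had more. The median difference was −0.374 kb with −log10 q of at least 5, −0.378 kb at 4-fold enrichment or more, −0.312 kb with equal numbers of peaks, −0.255 kb with gene bodies alone and −0.399 kb without the bodies of other genes. The share of WT peaks with a partner was 52.3% with an overlap of 50% of the shorter peak, 75.6% within 1 kb and 42.2% with −log10 q of at least 5. The share of AKO peaks with a partner was 86.9% within 1 kb and 72.2% at 4-fold enrichment or more. The cause was not tested.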

Other observations

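Family members outside the rule had little or no peak coverage. Ucp1, the uncoupling protein of thermogenic fat, had 0.518 kb (WT) and 0.335 kb (AKO). Of the 4 carrier genes on the X chromosome, Slc25a5, an ADP/ATP carrier, had 0.302 kb in WT and no AKO peak. Slc25a14, Slc25a43 and Slc25a53 had no peak in either library. Few peaks of any gene lay off the numbered chromosomes, 398 of 72040 in WT and 167 of 62361 in AKO. The lack of peaks at these genes is therefore not a result about the carriers. Whether they differ from other genes on the X chromosome was not tested.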
